A study of Mus musculus with 11 samples.

Results

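The GABA-A receptor is the chloride channel through which the inhibitory transmitter GABA acts within milliseconds. It is assembled from subunits of several classes, usually alpha, beta and gamma subunits around a common pore. The alpha subunit sets much of the receptor's sensitivity to GABA and to benzodiazepines, the beta subunit carries part of the GABA binding site and is needed for assembly and surface delivery, and the gamma subunit directs receptors to synapses and completes the benzodiazepine site. In the hypothalamus GABA is the main inhibitory transmitter, used among others by the AgRP neurons that drive feeding, and the set of subunits in a neuron changes as the brain matures. The genes described here are 7 subunit genes, namely the alpha subunit genes Gabra2, Gabra3, Gabra4 and Gabra5, the beta subunit genes Gabrb1 and Gabrb2, and the gamma subunit gene Gabrg1. They were chosen by symbol, and every mouse probe whose accession mapped to one of these symbols was used. This gave 9 probes on 18 spots, among 39429 mouse probes on 43020 spots that named 19987 genes in all. Gabra3 and Gabrg1 had a pair of probes each, and the other genes 1 probe each.

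Total RNA was taken from the hypothalamus of male C57BL/6N offspring at P21, and the cRNA of every sample was marked with Cy3 alone and read on a separate array. In 6 samples the dams had received a high-fat diet before conception, through gestation and during lactation (HFD). In 5 samples the dams had received standard chow over the same period (CO; these samples are titled SD). No transgene or further treatment was part of the design, and the hypothalamus was dissected as a block that holds many nuclei. Whether each sample came from 1 animal, and from which dam, is not stated in the labels. The titles of the CO samples share number prefixes whose meaning is not given. The p-values therefore cover the variation among these samples only. Scanning of the HFD arrays and of the CO arrays lay 337 days apart, on different slides and with different versions of the extraction protocol of the scanner software, so that diet and scan session cannot be told apart in any result below. In bulk tissue, fewer cells of a type and less RNA per cell cannot be told apart either.

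Of 14 hypothalamic marker genes, 12 were well above background on all 11 arrays. On HFD arrays 71.8 to 77.4% of spots stood well above background, against 82.5 to 85.7% on CO arrays. The processed signal had a 75th percentile of 3135 to 3447 intensity units on HFD arrays and 2216 to 2932 on CO arrays. All values below are log2 signals relative to this percentile of each array, so 0 is the percentile itself. Probes well above background on at least 5 arrays entered a two-sided limma fit, and the Benjamini-Hochberg adjustment ran over these 31790 probes, with a threshold of 0.05. Of them 67.1% passed, 23.6% with a higher and 43.6% with a lower level in HFD offspring, and the median log2 difference over all probes tested was -0.18. For 17.4% of probes the lowest HFD sample exceeded the highest CO sample, and for 30.5% the highest HFD sample was under the lowest CO sample. On 8 spike-in probes, whose target RNA was mixed into each sample in an amount the sources used here do not give, the mean log2 level relative to the 75th percentile was 1.70 to 2.08 on HFD arrays and 1.14 to 1.31 on CO arrays. Scaling to these probes, an alternative chosen after seeing the data, lowered every log2 difference by 0.68, moved the median of all probes to -0.85, and left 2248 probes higher and 25630 lower, against 7487 higher and 13852 lower with the 75th percentile. With normexp background correction 4592 were higher and 5356 lower.

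In the mouse genome (GRCm38.p6, RefSeq gene order) several members lie beside other receptor genes. Gabrg1, Gabra2, Gabra4 and Gabrb1 form a group on chromosome 5 that is interrupted only by Cox7b2 among protein-coding genes, and the annotated spans of Gabra4 and Gabrb1 overlap. Gabra5 is on chromosome 7, Gabrb2 on chromosome 11, and Gabra3 lies next to Gabrq on the X chromosome. The RefSeq promoter table held 11 windows of 300 bases for the 7 members, 250 before and 50 from the start of transcription. The upstream part is shown for Gabra2 and Gabrg1, neighbours that were both higher in HFD offspring, and for Gabra3, the member whose brightest probe was lower. These windows are on the minus strand at chr5:71095850-71096099, chr5:70842618-70842867 and chrX:72656920-72657169 and overlap no other annotated gene. Capitals mark a match, on either strand, to TATAAA (the TATA box) or GGGCGG (the GC box). A further motif, TGACG, part of the CRE element, was searched in the same way.
Gabra2: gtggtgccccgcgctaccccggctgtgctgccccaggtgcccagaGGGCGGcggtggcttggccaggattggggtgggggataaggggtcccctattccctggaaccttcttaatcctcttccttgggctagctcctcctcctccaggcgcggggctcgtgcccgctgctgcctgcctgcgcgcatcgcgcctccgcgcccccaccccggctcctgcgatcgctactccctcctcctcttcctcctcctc
Gabrg1: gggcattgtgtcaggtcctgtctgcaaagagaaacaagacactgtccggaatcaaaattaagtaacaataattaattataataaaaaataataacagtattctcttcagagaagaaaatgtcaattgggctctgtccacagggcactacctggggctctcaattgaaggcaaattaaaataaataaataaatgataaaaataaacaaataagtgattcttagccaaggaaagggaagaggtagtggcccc
Gabra3: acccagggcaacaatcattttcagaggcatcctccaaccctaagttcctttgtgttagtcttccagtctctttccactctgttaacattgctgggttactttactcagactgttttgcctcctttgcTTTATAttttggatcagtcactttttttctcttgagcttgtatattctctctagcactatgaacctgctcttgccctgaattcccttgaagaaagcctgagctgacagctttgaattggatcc
The upstream part was 70.0% G and C in Gabra2, 35.6% in Gabrg1 and 42.4% in Gabra3, so that the neighbours that were both higher had the highest and the lowest share of these 3. Gabra2 held a GC box, Gabra3 a TATA box in reverse, and Gabrg1 neither sequence. Over the whole windows, 3 of the 11 windows of the members held TATAAA, against 13.6% of 32851 windows in the table, 3 held GGGCGG, against 35.7%, and 1 held TGACG, against 20.8%. Both windows of Gabra3 held TATAAA, but they overlap and share the match shown above, so it was counted in each. The match to all 3 motifs in a single window occurred in the first window of Gabrb2. A match is a description of the letters in the window only.

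Of the 9 member probes, all well above background on all 11 arrays, 7 were higher in HFD offspring, 1 was lower and 1 missed the threshold. The median log2 difference over the member probes was 0.92. Groups did not overlap for 6 probes, with all HFD samples above all CO samples for 5 and below them for 1. Taking each gene by its brightest probe over all arrays, 5 of the 7 genes were higher and 1 lower, with a median of 1.19. Over all 17188 genes tested in this way 65.7% passed, 22.0% with a higher and 43.8% with a lower level, and the median was -0.17. Scaled to the 8 spike-in probes, 4 member probes were higher (Gabra2, Gabrb1, Gabrb2 and the brighter Gabrg1 probe) and 2 lower (the brighter Gabra3 probe and Gabra5, at -1.04). By Rank Product, the rank-based test named in the methods, with its percentage of false positives held under 0.001, Gabrb2 alone of the member probes passed, among 887 probes higher and 645 lower in all. The genes were named with earlier results of these arrays known, and the counts are a description of these 7 genes.

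Both beta subunit genes were higher in HFD offspring. Gabrb2, the beta subunit of the most common receptor of the adult brain, had log2 levels between 2.91 and 3.49 in HFD offspring (median 3.24, n = 6), against 1.13, 0.39, 1.77, 1.89 and 0.45 in CO replicates 1 to 5. The lowest HFD sample thus lay above the highest CO sample, and the CO samples were spread more widely, with replicates 2 and 5 at the bottom. The levels averaged 3.24 ± 0.20 in HFD (SD, n = 6) and 1.13 ± 0.70 in CO offspring (SD, n = 5), a 4.32-fold higher level in HFD offspring, or a difference of 2.11 on the log2 scale (limma adjusted p = 3.79e-05, standard error 0.27). In absolute size, this difference was larger than 96.3% of those of all probes tested. Gabrb1, a beta subunit with a more restricted distribution, had log2 levels between 1.76 and 2.08 in HFD offspring (median 1.91), against 0.74, 0.24, 0.88, 0.73 and 0.30 in CO replicates 1 to 5. Replicates 2 and 5 were again the lowest of the CO samples, and the groups were separated. Its level was 2.50-fold higher in HFD offspring, or by 1.32 on the log2 scale (limma adjusted p = 3.66e-06, standard error 0.12).

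Gabrg1, a gamma subunit expressed in parts of the brain that include the hypothalamus and in some glia, was higher in HFD offspring on both of its probes. Probe A_51_P396883, present in 10 spots on each array, gave log2 levels between 1.14 and 1.34 in HFD offspring (median 1.22), against 0.20, -0.24, 0.48, 0.30 and -0.51 in CO replicates 1 to 5. With outlier spots left out, 8 to 10 spots remained on an array. They differed by an SD of 0.037 to 0.10 on HFD arrays and 0.023 to 0.073 on CO arrays, beside an SD between samples of 0.074 in HFD and 0.41 in CO offspring. The difference was 1.19 on the log2 scale, or 2.28-fold (standard error 0.16, adjusted p = 4.65e-05 from limma). Probe A_66_P118170 gave log2 levels between -2.76 and -2.41 in HFD offspring (median -2.47), against -3.15, -3.69, -3.02, -3.42 and -3.85 in CO replicates 1 to 5. Here too the groups did not overlap, and the difference was 0.92 (standard error 0.14, adjusted p = 1.70e-04 from limma). Scaled to the 8 spike-in probes, this dimmer probe was at 0.24 and did not pass (adjusted p = 0.147 from limma). The difference between the probes was taken within each array, which needs no scaling between arrays. It was 0.27 larger on the log2 scale in HFD offspring than in CO offspring (two-sided exact permutation test, p = 0.0173, adjusted p = 0.0173 over 2 genes), so the probes agreed in direction but not in size. Without CO replicates 2 and 5 the adjusted p of this difference was 0.0833.

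The 4 alpha subunit genes did not move together. Gabra2, an alpha subunit of synaptic receptors that is abundant in the immature brain, had log2 levels between 0.48 and 0.91 in HFD offspring (median 0.69), against -0.66, -1.14, -0.26, -0.10 and -1.32 in CO replicates 1 to 5. All HFD samples were above all CO samples, with CO replicates 2 and 5 lowest as for the beta and gamma subunits. Their means differed by 1.39 on the log2 scale, or 2.62-fold (standard error 0.21, adjusted p = 1.17e-04 from limma). Gabra4, an alpha subunit found largely outside synapses together with the delta subunit, had log2 levels between 0.64 and 1.28 in HFD offspring (median 0.99), against 0.24, 0.58, 0.37, 0.64 and 0.35 in CO replicates 1 to 5. It was higher by 0.54 (1.46-fold, standard error 0.12, adjusted p = 0.00143 from limma), but it turned to -0.13, not past the threshold, when scaled to the spike-in probes, and the groups overlapped, since HFD replicate 3 and CO replicate 4 met at 0.64. Gabra5, the alpha subunit of extrasynaptic receptors in hippocampus, had log2 levels between -1.51 and -0.42 in HFD offspring (median -0.83), against -0.62, -0.79, -0.91, -0.34 and 0.06 in CO replicates 1 to 5. The groups overlapped over most of their range, and the difference of -0.36 did not pass the test (95% confidence interval -0.84 to 0.11, adjusted p = 0.146 from limma). The interval used the limma standard error with the residual degrees of freedom. These are fewer than in the limma test, so the interval is somewhat wider than that of the test.

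Gabra3, an alpha subunit typical of immature neurons and of monoaminergic nuclei, did not give the same result on its probes. On the brightest probe, A_55_P1963463, log2 levels lay between 1.02 and 1.34 in HFD offspring (median 1.26), against 1.91, 1.94, 2.13, 2.16 and 2.00 in CO replicates 1 to 5. All HFD samples were below all CO samples, and CO replicates 2 and 5 did not stand apart. The level was lower in HFD offspring by 0.80 on the log2 scale, so that CO offspring had a 1.74-fold higher level (standard error 0.075, adjusted p = 4.16e-06 from limma). On probe A_55_P2112772, whose processed signal was only 100.1 to 125.7 intensity units in HFD and 53.3 to 93.9 in CO offspring, log2 levels lay between -5.04 and -4.66 in HFD offspring (median -4.88), against -5.45, -5.45, -5.49, -4.96 and -5.33 in CO replicates 1 to 5. This dim probe was higher in HFD offspring by 0.49 (standard error 0.10, adjusted p = 0.00147 from limma), with CO replicate 4 inside the HFD range, and the call was lost with normexp (0.14, adjusted p = 0.814 from limma) and when scaled to the spike-in probes (-0.19). The within-array difference between the probes, the brighter minus the dimmer, was 1.29 smaller in HFD offspring (two-sided exact permutation test, p = 0.00216, which is the minimum for 6 arrays against 5, adjusted p = 0.00433 over 2 genes). The mean of the probes gave a log2 difference of -0.15 (adjusted p = 0.0969 from limma), so no direction for Gabra3 as a gene can be read from these arrays.

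**Figure D1:**
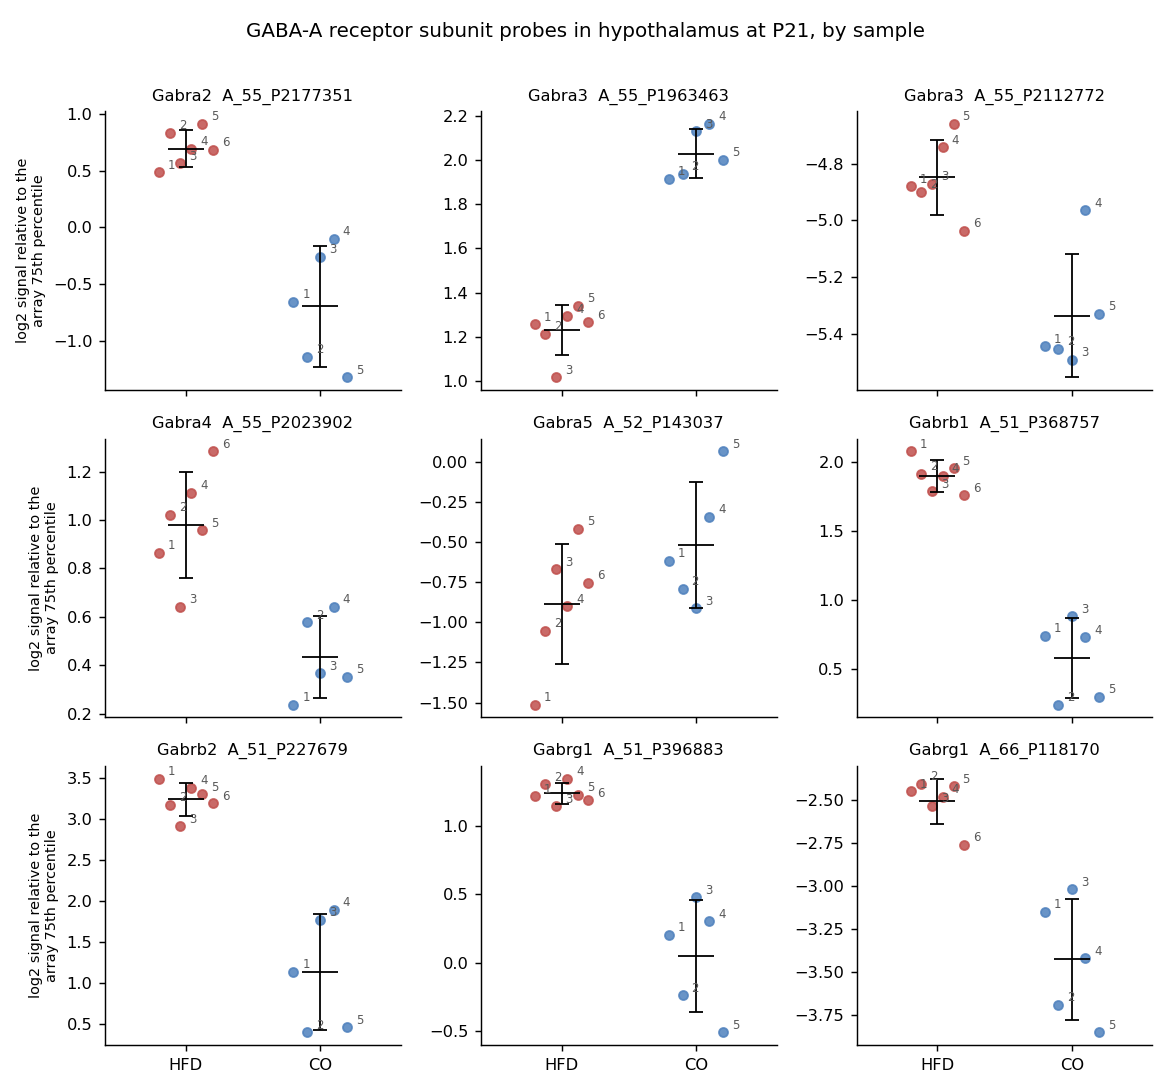
Log2 signal relative to the 75th percentile of each array for the 9 probes of the 7 subunit genes, with HFD samples on the left and CO samples on the right of each panel; points are samples marked with their replicate number, and bars are the mean ± SD (n = 6 HFD, n = 5 CO). The scales differ between panels; HFD points lie above all CO points for Gabra2, Gabrb1, Gabrb2 and both probes of Gabrg1, and below them for the brighter probe of Gabra3.

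Of 9 further GABA-A subunit genes described here, which are not the whole remaining family, 8 could be tested, and by their brightest probe 4 were lower in HFD offspring and 4 did not pass. Over all genes tested 43.8% were lower and 22.0% higher, so the count of lower genes is near the share over all genes. The count of lower genes was 2 with the filter on all 11 arrays and 1 with normexp background correction. Lower were Gabrd, the delta subunit of extrasynaptic receptors (-0.73 on the log2 scale, limma adjusted p = 3.29e-04, standard error 0.13), and Gabrr1, a rho subunit first known from retina (-0.77, standard error 0.16, adjusted p = 0.00134 from limma). Gabre, the epsilon subunit, had a difference of -1.84 (adjusted p = 5.38e-05 from limma) and Gabrr3, another rho subunit, of -1.03 (adjusted p = 0.00144 from limma), but these probes were well above background on only 3 and 1 of the 6 HFD arrays. Gabrg3 (-0.22), Gabrr2 (-0.34), Gabrp (-0.46) and Gabrq (0.07) did not pass the test on their brightest probes. The dimmer probe of Gabrg3 passed in the opposite direction (0.87), so that for this gene too the direction differed between probes. Gabra6, the alpha subunit of cerebellar granule cells, did not stand well above background on any of the arrays.

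**Figure D2:**
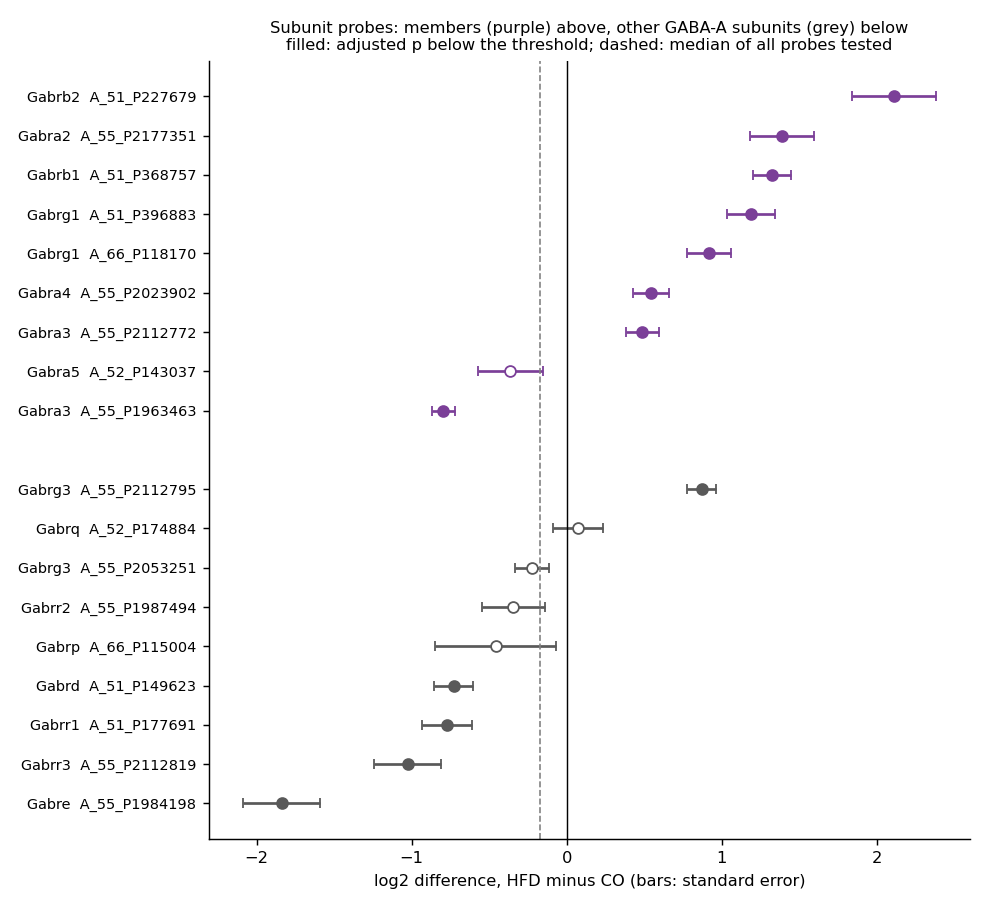
Log2 difference, HFD minus CO, with standard error for the 9 member probes (purple) and the tested probes of the further GABA-A subunit genes described here (grey), each ordered by size; filled points passed the threshold of 0.05 after adjustment over all probes, and the dashed line is the median of all probes, -0.18. The member probes run from -0.80 for the brighter Gabra3 probe to 2.11 for Gabrb2, and the other subunits from -1.84 for Gabre to 0.87 for the dimmer probe of Gabrg3.

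Whether the subunits changed unequally was examined within arrays, where the scaling between arrays drops out. For each of the 21 pairs of members, the log2 difference between their brightest probes was taken on each array and compared between HFD and CO samples by an exact permutation test, two-sided, with p-values adjusted over the 21 pairs. Of these pairs 17 passed the threshold, with adjusted p between 0.00350 and 0.0160. The share among pairs of other probes was not computed. Since 67.1% of all probes tested differed between the groups, the count describes these pairs only. The gap between Gabrb2 and the brighter Gabra3 probe changed most, by 2.91 on the log2 scale (adjusted p = 0.00350, exact permutation test). The within-array differences were 1.89 to 2.23 in HFD and -1.54 to -0.27 in CO samples. The dimmer Gabra3 probe, higher by 0.49 in HFD offspring, was not used, so every pair with Gabra3 describes its brighter probe only. Gabrb2 changed more than each of the other 6 members, by at least 0.72. Among Gabra2, Gabrb1 and Gabrg1, the members that share the chromosome 5 cluster with Gabra4, no pair passed: the within-array difference was 0.07 for Gabra2 against Gabrb1, 0.20 for Gabra2 against Gabrg1 and 0.13 for Gabrb1 against Gabrg1 (adjusted p = 0.665, 0.111 and 0.155, exact permutation test). Gabra4, in the same cluster, changed less than Gabra2, Gabrb1 and Gabrg1, by 0.84, 0.78 and 0.64 (adjusted p = 0.00350, 0.0114 and 0.0114, exact permutation test). Gabra5 against Gabra3 gave 0.43 and did not pass (adjusted p = 0.120, exact permutation test). The 8 spike-in probes, measured on the same arrays, had log2 differences between HFD and CO of 0.25 to 1.27, a spread of 1.02 between probes that bind added RNA. The spike-in probes not well above background on all arrays stood at -1.41 and -0.33. A range over so few probes sets no limit for other probes, and the part of such probe differences in the pairs was not tested.

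**Figure D3:**
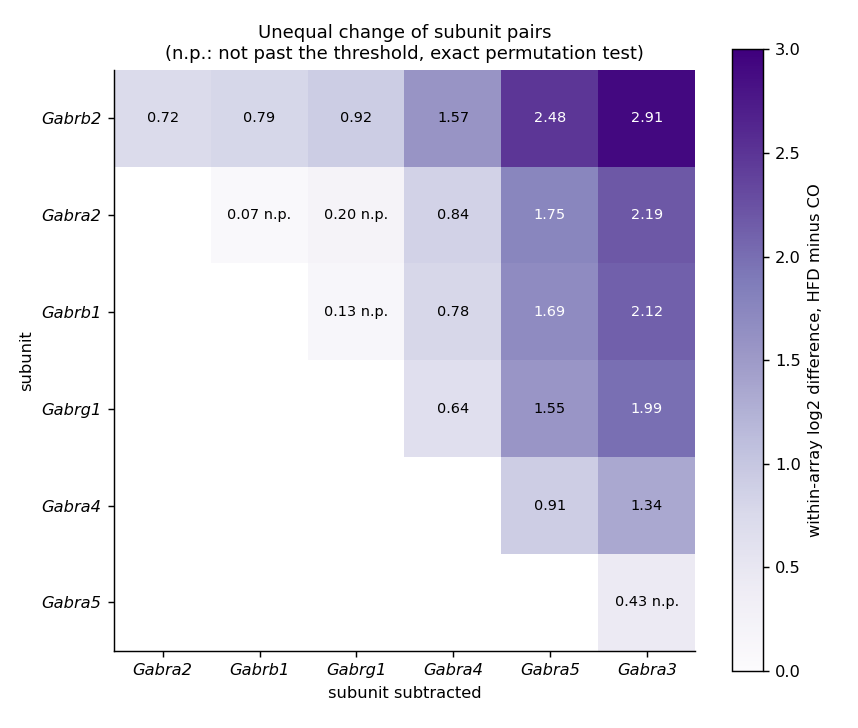
Change between HFD and CO samples in the within-array log2 difference of each pair of members, the subunit of the row minus the subunit of the column, with darker cells for larger changes; members are ordered by their own log2 difference, which sets the sign of the cells. The change is largest for Gabrb2 against Gabra3, at 2.91, with Gabra3 taken by its brighter probe only. The 4 cells marked n.p. did not pass the exact permutation test.

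The deviations of Gabra2, Gabrb1, Gabrb2 and Gabrg1 from their group means also went together, mostly on CO arrays. Over the 11 deviations from the group means, Pearson's r between the brightest probes of these 4 genes was 0.77 to 0.90 in the 6 pairs, which is given as a description since the arrays share batches and slides. The deviations were largest on CO arrays, where replicates 2 and 5 were low and replicates 3 and 4 high for all 4 genes. On HFD arrays they did not all go together. In HFD replicate 1 Gabra2 had its lowest HFD value (deviation -0.21), while Gabrb1 (0.18) and Gabrb2 (0.25) had their highest. The SD was larger in CO than in HFD offspring for 7 of the 9 member probes, and for 61.4% of all probes. The same CO arrays differed in a list of 10 striatal marker genes, all detected on all arrays. Their mean log2 deviation from the mean of all arrays was 1.34, 1.65, 0.11, -0.63 and 1.13 in CO replicates 1 to 5, and between -1.38 and 0.17 in HFD samples. CO replicate 1 was thus high in the list too, while the 4 subunit genes lay at or above their group mean there, with deviations of 0.0050 to 0.16. The summed level of the list, on the linear scale relative to the 75th percentile, was 18.0 to 43.7 in HFD and 25.1 to 121 in CO samples, and 8 of its 10 genes were lower in HFD offspring. Of 8 thalamic markers 6 were higher and 1 lower in HFD offspring, with summed levels of 17.9 to 25.2 in HFD and 10.6 to 19.2 in CO samples. Of the 14 hypothalamic markers 3 were higher and none lower, with summed levels of 45.6 to 74.1 in HFD and 41.7 to 51.8 in CO samples. Of 8 astrocyte markers 2 were lower and none higher. Of 5 endothelial markers 3 were higher and 2 lower, and of 2 glutamate neuron markers 1 was higher and 1 lower. Of 8 cortical and hippocampal markers 1 was higher and 3 lower. The mean log2 deviation of that list was 1.15 on CO replicate 5 and -1.21 on HFD replicate 1, and -0.28 to 0.27 on the other arrays. Gabra5 was highest in CO replicate 5 (0.06) and lowest in HFD replicate 1 (-1.51). General markers of neurons were higher for 5 of 8 genes and lower for none, and their summed level was 158 to 176 in HFD and 119 to 135 in CO samples, without overlap. Of 7 oligodendrocyte markers 5 were lower and none higher, with mean log2 deviations of -0.28 to -0.10 in HFD and 0.13 to 0.34 in CO samples and summed levels of 369 to 437 in HFD and 415 to 487 in CO samples. Of microglial markers, 4 of 7 were lower and 2 higher, with summed levels of 15.6 to 18.7 in HFD and 20.9 to 25.0 in CO samples, and 2 of 3 markers of GABA neurons were lower and 1 higher, with median summed levels of 44.7 in HFD and 60.8 in CO samples and no overlap. Among all genes tested 22.0% were higher and 43.8% lower. The cortical and hippocampal and the microglial counts lie near these shares, and no marker count was tested against them. CO replicates 2 and 5 also had the highest shares of spots well above background, 85.7% and 85.2%. The part of tissue composition and of these arrays' signal in the subunit levels was not tested. Without CO replicates 2 and 5, a comparison chosen after seeing the data, 7 member probes were again higher and 1 lower, and the log2 difference was 1.64 for Gabrb2, 1.12 for Gabrb1, 1.03 for Gabra2 and 0.91 for Gabrg1 on its brightest probe.

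**Figure D4:**
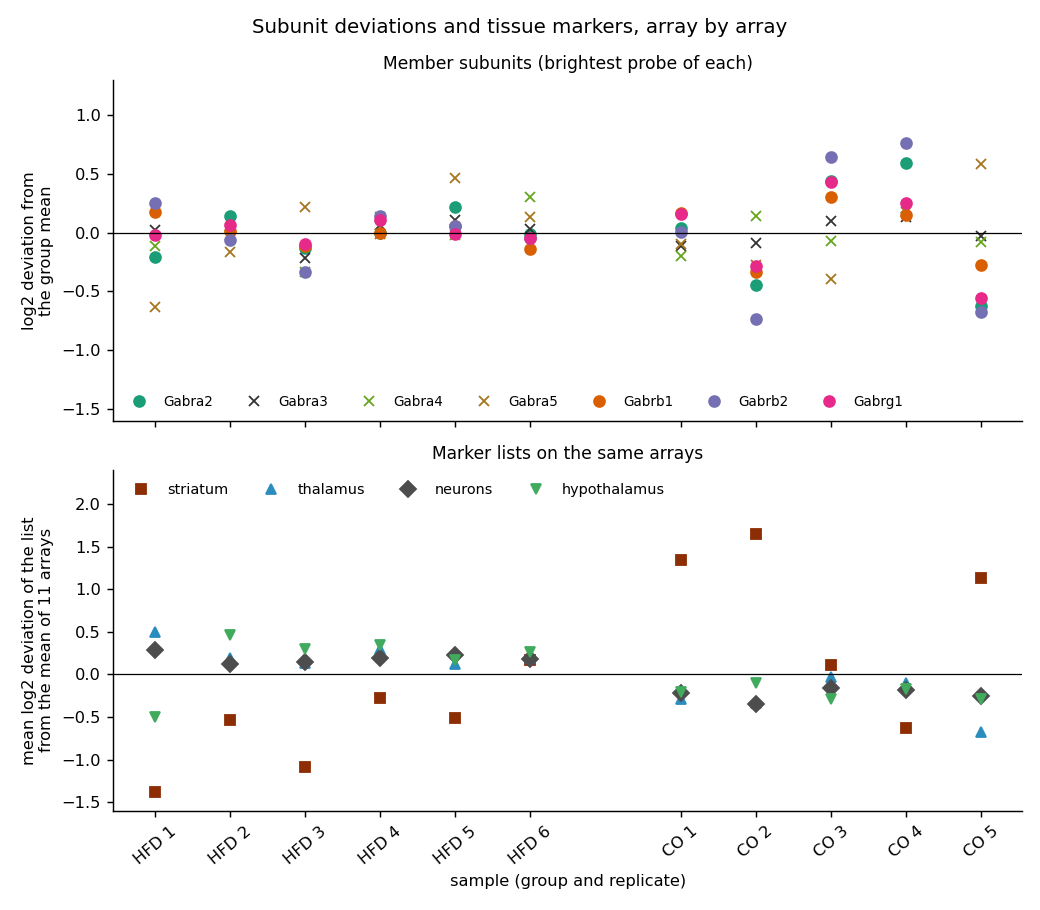
Upper panel: log2 deviation of the 7 members (brightest probe) from the mean of their group on each array, HFD arrays on the left and CO arrays on the right, with filled circles for Gabra2, Gabrb1, Gabrb2 and Gabrg1 and crosses for the other members. Lower panel: mean log2 deviation of 4 marker lists from the mean of the 11 arrays; the circles lie below 0 on CO replicates 2 and 5, where the striatal list stands at 1.65 and 1.13, but not on CO replicate 1, where it stands at 1.34.

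The genes whose deviations from the group means were most like those of a member, among the brightest probes of all genes tested, are given as a description with Pearson's r over 11 arrays. For Gabrb2 they were Uba3, an enzyme of the NEDD8 pathway (r = 0.99), Top2b, a DNA topoisomerase of neurons (r = 0.99), and Tmem30a, a partner of lipid flippases (r = 0.99). For Gabra2 they were Vcan, which encodes the matrix proteoglycan versican (r = 0.99), Zfp518a (r = 0.98) and Ncapg2, a condensin subunit (r = 0.97). For Gabrb1 they were Mob1b (r = 0.99), Slc25a46, a mitochondrial outer membrane protein (r = 0.98), and Nap1l3 (r = 0.98). For Gabrg1 they were Fbxo30 (r = 0.99), Ppp1cb, a catalytic subunit of protein phosphatase (r = 0.98), and Arid4a (r = 0.98). All 12 of these genes were also higher in HFD offspring, with log2 differences from 0.52 for Tmem30a to 2.41 for Zfp518a. Over all genes tested 22.0% were higher. For each of these 12 genes r was larger in CO samples alone than in HFD samples alone. The lowest HFD values were 0.64 for Arid4a and 0.73 for Ppp1cb, against 0.999 and 0.99 in CO samples. For the 3 genes most like Gabra4 r was instead larger in HFD samples, and for those most like Gabra3 and Gabra5 it went either way. Gabra5 varied with Nr3c2, the mineralocorticoid receptor (r = 0.95), Nptx1, a synaptic pentraxin (r = 0.95), and Tbata (r = 0.95), Gabra4 with 4921524J17Rik (r = 0.90), Etd (r = 0.90) and Zfp459 (r = 0.90), and Gabra3 with Gm5796 (r = 0.95), Smad9 (r = 0.95) and Dipk1a (r = 0.95). The directions did not always match. The genes most like the brighter Gabra3 probe, itself lower, were higher (Gm5796 0.67, Smad9 0.28, Dipk1a 0.21). Of those most like Gabra4, itself higher, Etd was lower (-1.90), while 4921524J17Rik (0.77) and Zfp459 (0.76) were higher. Those most like Gabra5 had negative differences (Nr3c2 -0.64, Nptx1 -0.64, Tbata -1.07), with Nptx1 not past the threshold. No member was among the 3 genes most like another member.

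Genes that make, move or anchor the receptor and its ligand showed smaller differences than Gabrb2, in both directions. Over all 5 lists of GABA pathway genes outside the members, 47 genes described here could be tested, and 8 were higher, 21 lower and 18 did not pass, with a median log2 difference of -0.22, against -0.17 over all genes. These shares were near those over all genes, 22.0% higher and 43.8% lower, and normexp left 6 higher and 11 lower. Among 20 genes of receptor assembly, trafficking and anchoring, 3 were higher and 11 lower (median -0.25). Higher were Rdx, encoding radixin, which anchors receptors that hold the alpha subunit of Gabra5 (1.08, adjusted p = 1.79e-05), and Gphn, encoding gephyrin, the scaffold of inhibitory synapses (0.56, adjusted p = 8.81e-06). Lower were Hap1, which carries receptors back to the surface (-0.78, adjusted p = 4.93e-06), and Trak1, a motor adaptor (-0.68, adjusted p = 1.20e-05), all from limma. Among 9 genes of GABA synthesis, vesicle loading, uptake and breakdown, 1 was higher and 5 lower (median -0.26). Gad2, a GABA-synthesizing enzyme, was higher (0.48, adjusted p = 5.73e-05), while Gad1, the other such enzyme, was lower (-0.43, adjusted p = 0.00245). Slc32a1, the vesicular GABA transporter, was lower (-0.57, adjusted p = 2.48e-04, and -1.90 on a dimmer probe), and so was Slc6a13, a GABA transporter of meninges and vessels (-0.67, adjusted p = 0.00534), all from limma.

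For the metabotropic GABA-B receptor and its KCTD subunits, 2 of 5 genes were higher and none lower on their brightest probes (median 0.15). These were Gabbr2 (0.70, adjusted p = 1.87e-05) and Kctd16 (0.60, adjusted p = 3.69e-04, both from limma). Gabbr1 (0.15) and Kctd12 (0.13) did not pass, although dimmer probes of Gabbr1 gave -1.25 and -1.33, past the threshold in the opposite direction, and dimmer probes of Gabbr2 gave 0.53 and -0.34. Of 6 genes of chloride handling, which sets whether the open receptor inhibits, 5 were named on the array and 2 were higher and 1 lower (median -0.02). Slc12a2, the chloride importer of immature neurons, was higher (0.89, adjusted p = 4.61e-05), as was Stk39, a kinase that regulates it (0.24, adjusted p = 0.0225), and the related kinase gene Oxsr1 was lower (-0.38, adjusted p = 0.00290, all from limma). Clcn2, a chloride channel, did not pass (-0.14, adjusted p = 0.0543 from limma). Among all genes tested 22.0% were higher and 43.8% lower, and lists of 5 genes are too short to be set against these shares.

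**Figure D5:**
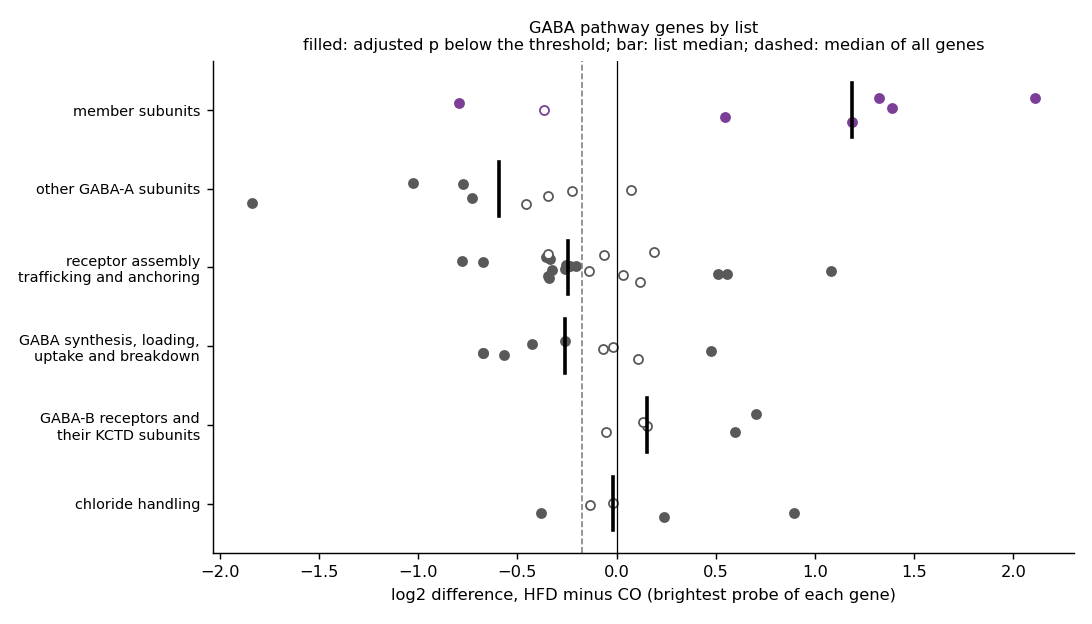
Log2 difference, HFD minus CO, of the brightest probe of each member subunit (purple) and of the tested genes of the 5 other GABA pathway lists (grey); filled points passed the threshold, black bars are list medians, and the dashed line is the median of all genes, -0.17. The median of the member subunits is 1.19, and the list medians lie between -0.59 and 0.15.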

How the data were processed

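Agilent one-color mouse arrays were run on hypothalamic RNA at P21 of 6 HFD and 5 CO samples, each counted as 1 replicate. The deposited files are scanner tables, 1 per array, and the processed signal taken from them is an intensity on a linear scale from which the software had removed the background. The submitters' processing notes name Agilent Feature Extraction 10.8, and the file headers name version 10.7.3.1. For the normalization between arrays by the authors, the step is not given in the sources that were used. Each processed signal was converted to log2 and the array 75th percentile was subtracted. Control and outlier spots were dropped, and replicate spots of a probe were averaged. Of 39429 mouse probes, 26369 were matched by accession to 19987 genes of a RefSeq annotation (GRCm38.p6), and unmatched probes stayed unnamed. A probe was tested if its signal stood well above background on 5 or more of the 11 arrays, and 27162 of the tested probes did so on each array.

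The diets were compared by lmFit and eBayes of limma 3.58.1 (R 4.3.3; statmod 1.5.0, data.table version 1.17.8), checked on simulated data. The fold change is 2 to the power of the log2 difference. Single within-array values were compared by exact permutation tests over all 462 assignments. The members and lists were chosen with earlier results of these data known. Named were every member and further GABA-A subunit, up to 4 members of each other list with the smallest adjusted p, and for each member the 3 genes with the highest correlation. Alternatives were quantile and median scaling, scaling to 10 spike-in probes (8 of them clearly over background on each array), normexp with an offset of 50 on median spot signals, used in place of mean spot signals, no filter, a filter on all 11 arrays, a random block for the slide, a block for the replicate number, leaving out each array, the Rank Product test of the methods at a percentage of false positives of 0.001, array weights with a variance trend, and averaging the probes of a gene. Scaling to the 8 brighter spike-in probes and leaving out both CO replicates 2 and 5 were added after seeing the data. Some GABA-A subunit genes are not reported here and were left out of the lists and their counts. The number of arrays limits the precision. Probe sequences and genome positions of the probes were not used here.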

Additional observations from a re-analysis of the deposited data

Results flagged for a closer look

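One value among 18 groups of member values lay apart from its group. On the dimmer Gabrg1 probe, A_66_P118170, HFD replicate 6 stood at -2.76 on the log2 scale, while the nearest HFD sample was at -2.54 and the highest at -2.41. Such a gap is found by chance in about 1 of 20 groups. On the brighter Gabrg1 probe the same sample, at 1.19, lay inside the HFD range.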

How the results depend on the processing

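Without any single array, 7 member probes were higher and 1 lower in HFD offspring, 7 to 9 pathway genes were higher and 20 to 23 lower, and 17 to 19 subunit pairs passed. The within-array probe difference lay between -1.35 and -1.22 for Gabra3 and between 0.23 and 0.33 for Gabrg1. With the replicate block, in which HFD replicate 6 has no partner, the counts were 7 and 1 for the member probes and 8 and 21 for the pathway genes. Replicate numbers share no more than a number: same-number correlations of deviations were 0.22, -0.02, -0.09, 0.02 and 0.16, and 1 of 5 HFD arrays was closest to its own number. The slide correlation was -0.036.

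Scaling to the 10 spike-in probes gave 5 member probes higher and 2 lower, with Gabra4 at 0.18 and the dimmer Gabra3 probe at 0.12 not past the threshold (adjusted p = 0.286 and 0.411 from limma), and 3 pathway genes higher and 34 lower. Over all 31790 probes tested this scaling left 3616 higher and 21497 lower. Scaling to the 8 well above background gave 4 member probes higher and 2 lower, and 1 pathway gene higher and 40 lower, and turned Gabra4 to -0.13 and the dimmer Gabra3 probe to -0.19, neither past the threshold (adjusted p = 0.431 and 0.215 from limma). Most of all probes tested were lower with this scaling too, by the counts given above. The Rank Product test gave 1 member probe higher, Gabrb2, and 0 lower, and 0 pathway genes in either direction. Normexp gave 11 pathway genes lower, and a probe difference for Gabrg1 of 0.40 (adjusted p = 0.0996, exact permutation test). Without CO replicates 2 and 5 that difference was 0.22. Gabrb1 minus Gabrg1 was -0.0146 under normexp. Gabra2 minus Gabrb1 lay between -0.0191 (without CO replicate 5) and 0.178 without single arrays, and was -0.0830 without CO replicates 2 and 5. The cause of these changes was not tested. Gabrb2 passed with the same direction under all 23 alternatives, at 1.44 to 2.30. Signal over background limits the dimmer Gabra3 probe, Gabre, Gabrr3 and Gabrp.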
